A study of Mus musculus with 2 samples.

Results

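MHC class II-high dendritic-like cells are described here in mouse cornea and limbus injured with sodium hydroxide (NaOH). They are the 73 cells of the NaOH library, out of 8146 kept cells, that met a rule on measured RNA. A kept cell had at least 1000 UMIs (unique molecular identifiers, tags that mark single captured transcripts) and at most 20% mitochondrial UMIs. A member then had under 3000 CPM (its UMIs over all UMIs of the cell, scaled to 1000000) of the basal keratins Krt5 and Krt14 together and at least 5000 CPM of H2-Aa, H2-Ab1, H2-Eb1 and Cd74 together. It also had under 3 UMIs of the complement genes C1qa, C1qb and C1qc together and at least 1 UMI of the leukocyte genes Ptprc or Tyrobp. From 9399 barcodes the steps left 8351 cells by UMIs, 8146 by mitochondrial share, 1812 by keratins, 110 by MHC class II and 73 by C1q, and all of these had Ptprc or Tyrobp. The cells set beside them are the 201 C1q-positive cells of the same library, which met the same limits on UMIs, mitochondrial share, keratins and Ptprc or Tyrobp and had at least 3 C1q UMIs.

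The study has a library of wild-type cornea and limbus with NaOH injury and a library of uninjured wild-type control tissue, 1 per group. The sources used here do not give the time after the injury or the number of mice per library. Most conjunctiva was dissected away, and the tissue was digested with liberase and trypsin before droplet capture on the 10x Genomics platform. A single library per group leaves no replicate against which to judge a difference, so no test was made, and every 95% interval below covers counting error only.

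MHC class II molecules display peptides from ingested protein to CD4 T cells. Their chains are loaded in endosomes, where Cd74, the invariant chain, first holds the groove and the H2-DM protein later exchanges it for peptide. Conventional dendritic cells carry them at high density and, after taking up antigen, can move through lymph vessels to a draining lymph node by means of the chemokine receptor Ccr7. Macrophages, the main source of C1q, can carry class II as well but are chiefly scavengers.

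Class II genes share promoter elements called the X and Y boxes, on which the regulator Ciita and the Rfx proteins assemble. Windows of 130 bases before the gene start, from RefSeq on GRCm38.p6, are shown for 3 class II genes to let the spacing of both elements be seen: the presenting chain H2-Eb1 and the peptide-loading genes H2-DMb1 and H2-Ob. The capitals mark a core of the X box, ACNNATG, and then the core of the Y box, ATTGG. All 3 lie on the plus strand of chromosome 17, at chr17:34305737-34305866, chr17:34153061-34153190 and chr17:34238775-34238904 in the order shown.
H2-Eb1: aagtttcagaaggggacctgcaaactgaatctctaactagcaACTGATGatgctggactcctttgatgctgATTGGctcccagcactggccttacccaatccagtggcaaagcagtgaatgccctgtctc
H2-DMb1: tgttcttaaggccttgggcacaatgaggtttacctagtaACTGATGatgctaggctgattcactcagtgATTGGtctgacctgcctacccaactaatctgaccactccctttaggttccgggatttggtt
H2-Ob: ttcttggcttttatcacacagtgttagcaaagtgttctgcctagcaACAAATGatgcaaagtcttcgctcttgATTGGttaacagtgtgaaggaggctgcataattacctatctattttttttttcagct
The starts of the 2 cores lay 29 bases apart in H2-Eb1, 30 in H2-DMb1 and 27 in H2-Ob. With a spacing of 26 to 31 bases, set after these windows were read, an X core followed by a Y core stood in 5 of the 9 windows found for 8 of 9 class II genes looked up, and in 37 of all 32851 promoter windows of 300 bases (0.113%). On either strand the X core alone stood in 30.2% and the Y core alone in 37.4% of all windows. A match describes these letters only.

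The values that chose the cells are given as a description. The summed class II level was 5324 CPM in the lowest member, 36961 CPM in the median and 82685 CPM in the highest. The C1q-positive cells ran between 0 and 73798 CPM with a median of 130 CPM. H2-Aa, the alpha chain of the I-A molecule, stood at 363 CPM in the lowest member, 7092 in the median and 17276 in the highest. Cd74 stood at 2778 CPM in the lowest, 16503 in the median and 42454 in the highest. H2-Ab1 was seen in 97.3% and H2-Eb1 in 95.9% of the members. The members just inside the class II limit had 5324, 5556 and 5677 CPM, and the cells just outside had 4084, 3591 and 2861 CPM. C1q UMIs numbered 0 in 67 members, 1 in 3 and 2 in 3. Of the cells that met all other criteria, 1 had 3 C1q UMIs, 1 had 4 and 35 had more. Few cells lay near either limit. The genes of H2-Aa (ENSMUSG00000036594, minus strand, 34282744 to 34287823), H2-Ab1 (ENSMUSG00000073421, plus strand, 34257689 to 34269419) and H2-Eb1 (ENSMUSG00000060586, plus strand, 34305867 to 34316674) are neighbours on chromosome 17 of GRCm38.

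The members held 303041 UMIs in all, with a median of 3769 per cell (1228 to 15580) and of 1392 genes, against 1217064 UMIs, a median of 5437 and 1970 genes in the C1q-positive cells. Their median mitochondrial share was 2.88%, against 2.34%. The libraries shared 15 cell barcodes, and 0 of them were members or C1q-positive cells. Among all 683 keratin-low cells with Ptprc or Tyrobp in the NaOH library, the members made up 10.7%.

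A group of 4 members stood apart. They also carried 56 to 107 UMIs each of Dcn, a proteoglycan gene of stromal cells, and their Dcn and Col1a1 levels together were at least 3000 CPM. Of these, 3 cells with 5225, 5351 and 5710 UMIs agreed within sampling noise, with a chi-square per degree of freedom of 0.835, 0.937 and 1.04 for the 3 pairs over genes of at least 10 UMIs. The next lowest of 2345 member pairs had 1.32, the median pair 3.78, and the lowest of 19057 pairs of C1q-positive cells 1.33. Leaving out the highest doublet scores removed 3 members, of which 2 were among the 4. How the stromal RNA came into these cells was not tested, and the main results that rest on the 4 cells are given with and without them.

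**Figure D1:**
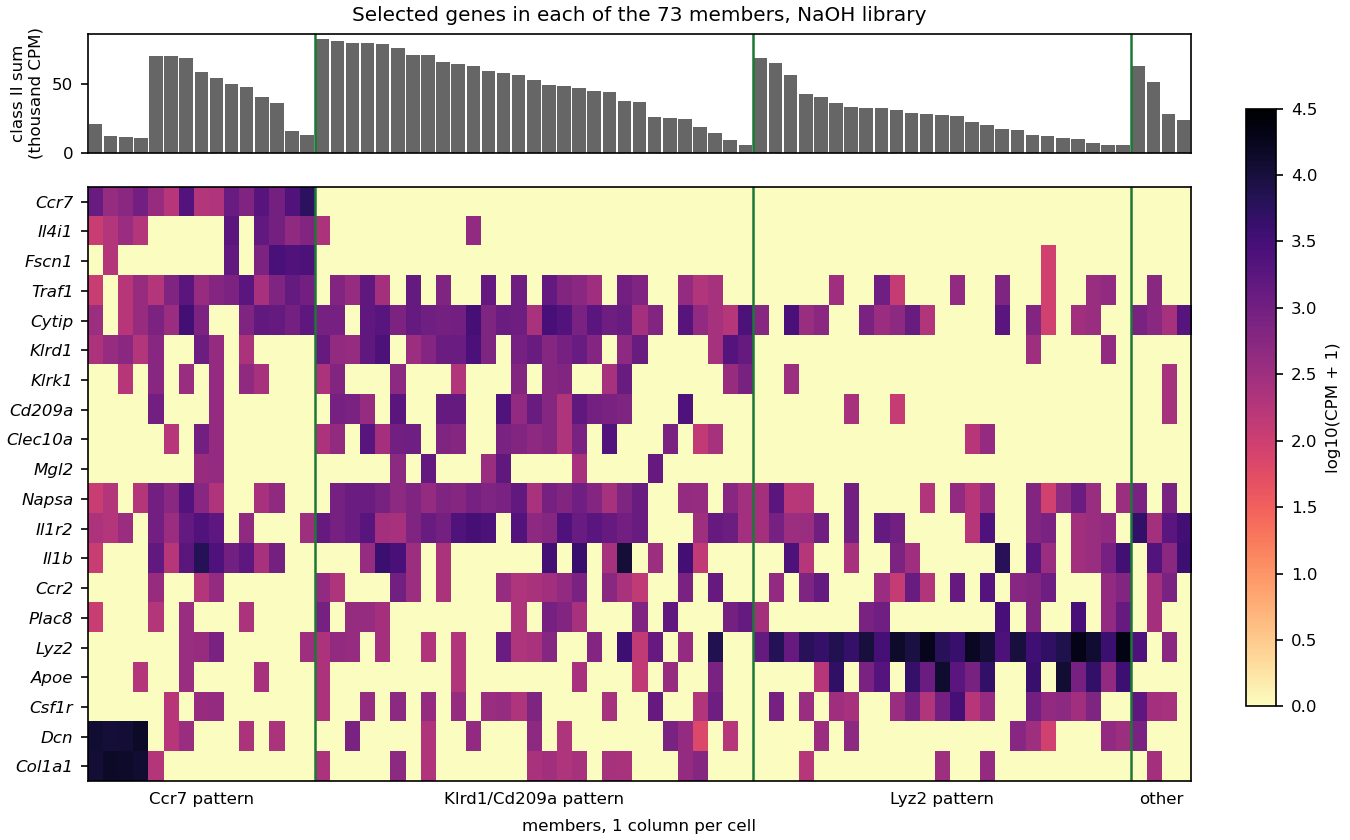
Each column is 1 of the 73 members; the bars give the summed CPM of the 4 class II genes divided by 1000 and the colours log10(CPM + 1) of 20 genes, ordered by pattern and then by class II level, with the 4 stromal-RNA cells at the far left. Ccr7 is seen in 15 cells, Klrd1 in 32, Cd209a in 21 and Lyz2 in 47, and Ccr7 and Cd209a are seen together in 2.

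Napsa and Cd209a, the 2 markers named with the label that lie outside the rule, are described first. The members were chosen with earlier results of these data known, so the levels are no independent check of the label. Napsa, an aspartic protease of antigen-presenting cells that was named as a marker of these cells, had 128 UMIs, 422 CPM (352 to 502), in the members and 34 UMIs, 27.9 CPM (19.4 to 39.0), in the C1q-positive cells, 15.1-fold higher (10.3 to 22.8). It was seen in 52 members (71.2%). Cd209a, the lectin DC-SIGN of type 2 conventional and monocyte-derived dendritic cells, was the other marker and was uneven: 21 members (28.8%) held its 74 UMIs, 244 CPM (192 to 307), against 8 UMIs, 6.57 CPM (2.84 to 12.95), 37.1-fold higher (17.9 to 89.2). In cells thinned to 1000 UMIs, Napsa was seen in 42.5% of the members, 3.98% of the C1q-positive and 0.0789% of epithelial cells, and Cd209a in 15.1%, 0% and 0%. Napsa (ENSMUSG00000002204) lies on chromosome 7 at 44572380 to 44586862, plus strand, and Cd209a (ENSMUSG00000031494) on chromosome 8 at 3743397 to 3748984, minus strand.

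Of 6686 genes with at least 20 UMIs over both cell groups, 514 (7.69%) were at least 2-fold higher in the members and 979 (14.6%) at least 2-fold lower, and the median log2 ratio was -0.19. These shares are the background for each list below; the lists were drawn up with earlier results of these data known, and a list's measured genes are those among the 6686. For these calls and for list medians a count under 3 UMIs over a group was set to 3. Printed folds use the counts themselves, and "at least" marks a fold against 0 UMIs, which were taken as 3.

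Of the 7 measured core genes of conventional dendritic cells, 5 were at least 2-fold higher and 0 lower (median log2 ratio 1.63). Irf4 (4.91-fold, 1.85 to 13.4) and Irf8 (2.43-fold, 1.65 to 3.55) encode the transcription factors that direct the type 2 and type 1 branches, and Relb (3.10-fold, 1.80 to 5.27) an NF-kappaB subunit needed for dendritic maturation. The defining genes were sparse: Flt3, the growth factor receptor of the lineage, had 12 UMIs in 9 members against 2 UMIs, and Zbtb46, its transcription factor, 4 UMIs in 3 members against 1. Cd24a, which also marks many epithelial cells, was at 49.5 CPM against 36.2 CPM.

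Of 10 measured genes of type 2 conventional dendritic cells, 7 were at least 2-fold higher and 0 lower (median log2 ratio 1.499). Cd209a and Napsa, the markers named with the label, were among the 7. Klrd1, the natural killer receptor chain CD94, had 117 UMIs in 32 members and 386 CPM (319 to 463), against 6 UMIs and 4.93 CPM (1.81 to 10.7), 78.3-fold higher (34.9 to 218). Per cell it was 0 CPM in the lowest and in the median member and 2658 CPM in the highest. Its neighbour Klrk1, which encodes NKG2D, had 39 UMIs in 19 members against 2, 78.3-fold higher (20.3 to 669). Klrd1 (ENSMUSG00000030165) lies on chromosome 6 at 129591782 to 129598775, plus strand, and Klrk1 (ENSMUSG00000030149) at 129610323 to 129623864, minus strand. Both are also genes of natural killer cells. Of 16 listed genes of T, NK and innate lymphoid cells, 13 had 0 UMIs in the members, among them Cd3e, Trac, Nkg7, Gzma, Il2rb and Klrb1c. Of the 3 measured genes of this list, 2 were at least 2-fold higher and 0 lower (median log2 ratio 1.05). The list's summed level was 280 CPM in the members and 157 CPM in the C1q-positive cells, most of it Il7r with 59 UMIs in 29 members.

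Clec10a, a galactose-binding lectin, was at 191 CPM against 22.2 CPM, 8.63-fold higher (5.38 to 14.2). Its close relative Mgl2 was at 75.9 CPM against 36.2 CPM, 2.10-fold higher (1.21 to 3.55), and was seen in 8 members. Paralogs as similar as these can share reads, so their levels are uncertain. Within the members Klrd1 and Cd209a were seen together in 14 of the 32 and 21 cells that held each.

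The defining genes of type 1 conventional dendritic cells, plasmacytoid dendritic cells and Langerhans cells were at or near 0. Of the type 1 genes Clec9a, Itgae and Gcsam were at 0 UMIs in the members, and Xcr1, the receptor that marks the branch, had 3 UMIs in 2 cells. Ifi205, an interferon-induced gene on the same list, was at 46.2 against 9.86 CPM, 4.69-fold higher (2.01 to 11.1). Siglech, of plasmacytoid cells, had 5 UMIs in 2 cells, and of the other genes on that list Ly6d had 12 UMIs in 1 cell, Ccr9 6 in 2 and Klk1 4 in 1, against 0 for each. Cd207, the langerin of epidermal Langerhans cells, had 1 UMI. Of B-cell genes 7 of 10 and of mast cell and basophil genes 7 of 8 were at 0.

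Ccr7 was absent from the C1q-positive cells and concentrated in a minority of the members. It had 75 UMIs in 15 members, 247 CPM (195 to 310), against 0 UMIs in 201 C1q-positive cells, at least 100.4-fold higher. Its gene (ENSMUSG00000037944) lies on chromosome 11 at 99144196 to 99155077, minus strand. Il4i1, a secreted amino acid oxidase of mature dendritic cells, had 27 UMIs in 11 members against 0, at least 36.1-fold higher. Fscn1, the actin-bundling protein fascin, had 36 UMIs in 7 members and 9 in the C1q-positive cells, 16.1-fold higher (7.59 to 37.9); epithelial cells held 56.9 CPM of it, against 119 CPM in the members. The chemokine gene Ccl22 had 12 UMIs in 6 members and Ccl17 3 UMIs in 2, against 0 for both, and Il12b, of the cytokine IL-12, had 0. All 5 measured genes of the mature dendritic cell list were at least 2-fold higher (median log2 ratio 4.01). Ccr7 and Il4i1 passed the minimum of 20 UMIs through the members alone and so could only come out higher. The count and the median were thus set in part by that minimum. Of the Ccr7 UMIs, 21 lay in the 4 cells with stromal RNA, and the other 54 in 11 cells, which makes 194 CPM over the members without these 4.

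Beyond the class II genes of the rule, the loading machinery was higher as well. H2-DMa and H2-DMb1, which encode the peptide exchanger H2-DM, stood at 511 CPM (434 to 599) against 107 CPM (89.2 to 127) and at 465 CPM (392 to 549) against 70.7 CPM (56.5 to 87.3). That is 4.79-fold (3.77 to 6.09) and 6.58-fold (5.001 to 8.71) higher. H2-Oa, a chain of the H2-DM inhibitor H2-O, had 26 UMIs against 0, at least 34.8-fold higher, and its partner H2-Ob 8 UMIs against 1. H2-DMb2 had 24 UMIs against 2, 48.2-fold higher (11.97 to 421), and its similarity to H2-DMb1 makes the split between them uncertain. Ciita, the class II master regulator, had 10 UMIs in 9 members against 0.

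The proteases of the same pathway went both ways. Ifi30, a thiol reductase that unfolds antigen, was 2.73-fold higher (2.44 to 3.05), at 1742 CPM against 638 CPM. Ctss, the protease that trims Cd74 in dendritic cells, was close, at 1369 CPM (1241 to 1508) against 1548 CPM (1479 to 1620), 1.13-fold lower (1.02 to 1.26). Ctsl, Ctsb, Ctsd and Lgmn, general endosomal proteases, were 4.24-fold (3.77 to 4.78), 7.65-fold (6.54 to 9.01), 6.93-fold (5.71 to 8.50) and 8.004-fold (6.22 to 10.5) lower. The log2 ratio of Ctsl was -2.08 with and -2.68 without the 4 cells with stromal RNA. Of the 13 measured genes of the pathway list, which holds no gene of the rule, 7 were at least 2-fold higher and 4 lower, with a median log2 ratio of 1.31. That median was below 0 under 3 alternatives that measured 10 or 11 genes of the list. Cytip, an adaptor of integrin contacts that is counted among the actin genes below as well, was among the 7 higher genes. The count and the median thus rest in part on a gene outside peptide loading.

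Of the C1q-positive cells, 37 also reached 5000 CPM of class II. The H2-DM genes were nearer to the members in those cells than in the rest: H2-DMa was at 511 CPM in the members, 388 CPM in the class II-high C1q-positive cells and 57.1 CPM in the 164 class II-low ones. H2-DMb1 was at 465, 361 and 19.3 CPM in the same order. Several genes called at least 2-fold against all C1q-positive cells were within 2-fold of the 37 cells. Among these, Cd83, which stabilises class II and CD86 at the surface, was at 191 CPM in the members against 186 CPM in those cells, Cd86, a ligand of CD28 on T cells, at 346 against 191 CPM and Cxcl16, a membrane-bound chemokine, at 445 against 350 CPM. Irf4 was at 36.3 against 27.3 CPM, Ctsl at 980 against 1274 CPM, Ccl2 at 323 against 361 CPM, Ccl7 at 162 against 120 CPM and Cxcl2 at 561 against 1093 CPM. Ifi30, a thiol reductase, was at 1742 against 1077 CPM and Rel, of the NF-kappaB subunit c-Rel, at 409 against 219 CPM. Cst3, cystatin C, was at 3369 against 2061 CPM. Other genes lay further apart. Klrd1 was at 386, 27.3 and 0.967 CPM, Cd209a at 244, 43.7 and 0 CPM, Cytip at 739, 186 and 29.0 CPM, and Ccr7 at 247, 0 and 0 CPM. Napsa was at 422, 120 and 11.6 CPM and Traf1 at 340, 60.1 and 13.5 CPM. Il1r2 was at 792, 148 and 16.4 CPM and Il1b at 904, 230 and 67.7 CPM. For Napsa, Traf1, Il1r2 and Il1b the folds against all C1q-positive cells are larger than against the class II-high ones. Mgl2 and Ccr2, the receptor by which monocytes leave the bone marrow, were higher in the class II-high C1q-positive cells: Mgl2 was at 75.9 CPM in the members, 213 CPM in those cells and 4.83 CPM in the class II-low ones, and Ccr2 at 277, 557 and 148 CPM. Apoe, the lipid carrier, was at 601, 2553 and 15494 CPM. Ctsd was at 350, 951 and 2686 CPM. Of macrophage and scavenger genes described below, Pf4 was at 52.8, 1448 and 12617 CPM, Mrc1 at 178, 700 and 1837 CPM. Stab1 was at 13.2, 60.1 and 700 CPM and F13a1 at 49.5, 159 and 917 CPM. For these genes too the folds against all C1q-positive cells are larger than against the class II-high ones. Against the 37 cells, 255 of 3348 measured genes were at least 2-fold higher and 284 at least 2-fold lower.

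**Figure D2:**
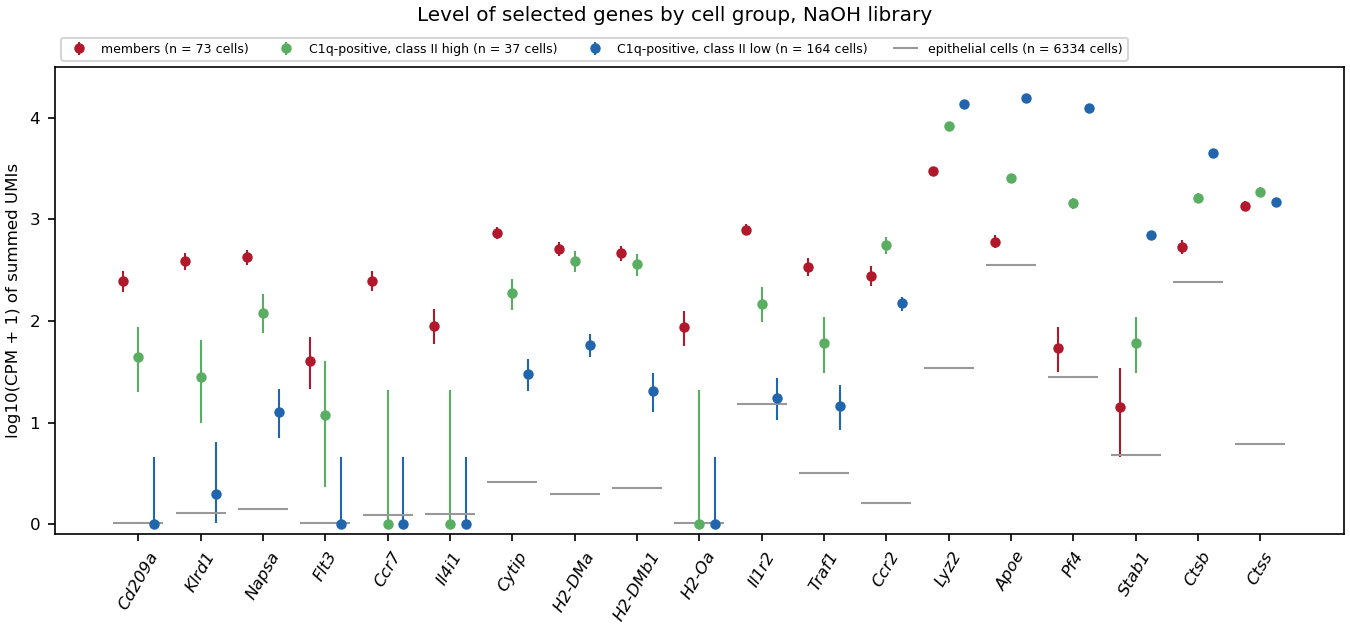
Points are log10(CPM + 1) of the summed UMIs of each gene in the members, in the C1q-positive cells of at least 5000 CPM class II and in the other C1q-positive cells, with exact Poisson 95% intervals; grey lines are epithelial cells of the same library. H2-DMa and H2-DMb1 are close in the members and the class II-high C1q-positive cells (511 against 388 CPM and 465 against 361 CPM), while Klrd1, Ccr7 and H2-Oa are far apart.

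Costimulatory genes, whose products pass the second signal to T cells, were mostly higher: of 13 measured, 8 were at least 2-fold higher and 2 lower (median log2 ratio 1.05). Cd86 was at 346 CPM against 124 CPM, 2.79-fold higher (2.16 to 3.61), and was seen in 47 members. Cd80, the other ligand of CD28, was 7.30-fold higher (3.33 to 16.9), Cd83 2.88-fold (2.02 to 4.08), and Tnfsf9, the 4-1BB ligand, 8.28-fold (4.43 to 16.1). The inhibitory genes Cd274, of PD-L1, and Havcr2, of TIM-3, were among the 8, at 52.8 against 26.3 CPM and 56.1 against 27.1 CPM. Lgals9 and Cd200r1 were the 2 that were lower. Against the class II-high C1q-positive cells alone, Cd83, Cd86 and Tnfsf9 did not reach 2-fold, with Tnfsf9 at 108.9 against 54.7 CPM. Among 15 measured MHC class I pathway genes, 3 were at least 2-fold higher and 0 lower (median 0.55), with H2-K1 at 772 against 463 CPM and B2m at 1211 against 1280 CPM.

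Among chemoattractant receptors besides Ccr7, Gpr183, an oxysterol receptor that positions dendritic cells, was at 234 CPM against 69.8 CPM, 3.35-fold higher (2.41 to 4.65), and S1pr1, a receptor for a lipid of blood and lymph, had 0 UMIs in the members against 27. Ccr2 was at 277 against 210 CPM and Ccr1 at 340 against 334 CPM. Actin and migration genes included 5 of 21 that were at least 2-fold higher and 0 lower. Among these were Cytip, an adaptor that loosens integrin contacts of maturing dendritic cells (14.1-fold, 10.6 to 18.9), Lsp1 (4.39-fold, 3.61 to 5.33), a leukocyte actin-binding protein, and Coro1a (2.83-fold, 2.42 to 3.31). Of the integrins, Itgb7 was 5.29-fold higher (2.94 to 9.67), and Itgam, the alpha chain of CD11b, was at 175 against 458 CPM.

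The members held less CC chemokine RNA than the C1q-positive cells as a whole. Of 9 measured CC chemokine genes 0 were at least 2-fold higher and all 9 were lower, with a median log2 ratio of -2.75. Ccl8, Ccl12 and Ccl24 passed the count minimum through the C1q-positive cells alone and so could only come out lower. Under the minimum, Ccl5, Ccl22 and Ccl17 had 13, 12 and 3 UMIs in the members, against 2, 0 and 0. Ccl11 had 0 against 1, and Ccl20 had 0 in both groups. Ccl2, which draws monocytes, was at 323 against 1449 CPM, 4.48-fold lower (3.66 to 5.55), with 51.0% of the members' UMIs in 1 cell; its level, like that of Ccl7, was within 2-fold of the class II-high C1q-positive cells. Ccl6 was 9.11-fold lower (7.10 to 11.9), and Ccl12 and Ccl24 had 0 UMIs in the members against 254 and 190. The CXC genes went both ways, 4 of 10 higher and 4 lower. Cxcl2, a neutrophil attractant, was at 561 against 2402 CPM. Cxcl16, a membrane-bound chemokine, was 2.06-fold higher (1.66 to 2.55), and Cxcl10, an interferon-induced attractant of T cells, had 20 UMIs in 3 members, all with Ccr7, against 3 UMIs. Cxcl12 and Cxcl14, the other higher genes, lay in the cells with stromal RNA: these 4 cells held all 31 Cxcl12 UMIs of the members and 42 of 44 Cxcl14 UMIs.

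Il1b and its decoy receptor stood out among the cytokine genes. Il1b, which encodes interleukin-1 beta, had 274 UMIs in 37 members, 904 CPM (800 to 1018), against 92.0 CPM (75.8 to 111), 9.83-fold higher (7.86 to 12.3). Per cell it was 0 CPM in the lowest member, 113 in the median and 10891 in the highest. Il1r2, the decoy receptor that binds interleukin-1 without signalling, was at 792 CPM (695 to 899) against 36.2 CPM (26.3 to 48.5), 21.9-fold higher (15.8 to 30.9), and was seen in 54 members. Its gene (ENSMUSG00000026073) lies on chromosome 1 at 40074079 to 40125231, plus strand. Both are also neutrophil genes: the 312 neutrophil cells of the library held 1065 CPM of Il1b and 654 CPM of Il1r2, and 14.3 CPM of Il1r2 stood in epithelial cells. S100a8 and S100a9, the leading neutrophil genes, were at 129 and 62.7 CPM in the members, against 187 and 151 CPM in the C1q-positive cells, and Ly6g, Retnlg and G0s2 at 0. Il10 had 2 UMIs in the members against 39, and Tnf was at 66.0 against 68.2 CPM.

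Of 17 measured NF-kappaB genes 7 were at least 2-fold higher and 0 lower (median log2 ratio 0.57). Traf1, an adaptor of TNF-family receptors, was at 340 CPM against 20.5 CPM, 16.5-fold higher (10.6 to 26.7), and Rel, of the subunit c-Rel, at 409 against 106 CPM, 3.86-fold higher (2.99 to 4.98). Map3k14, which encodes the kinase NIK of the alternative pathway, was 16.4-fold higher (8.60 to 33.9). Of 15 measured interferon-response genes 7 were at least 2-fold higher and 0 lower, among them Ifitm3 (2.19-fold, 2.01 to 2.39) and Rsad2 with 11 UMIs in 6 members. Immediate-early genes, which respond to tissue digestion too, had 3 of 20 higher and 1 lower and a median log2 ratio of -0.18, and heat-shock genes 0 higher and 1 lower of 10.

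Macrophage genes were lower throughout their list: 0 of 20 were at least 2-fold higher, 17 were lower, and the median log2 ratio was -2.43. The summed level of the list was 5402 CPM in the members and 44007 CPM in the C1q-positive cells. Pf4, a platelet-type chemokine that tissue macrophages also make, had 16 UMIs in 7 members, 52.8 CPM (30.2 to 85.7), against 10938 CPM (10753 to 11125), 207-fold lower (128 to 363); epithelial cells held 27.2 CPM. Its gene (ENSMUSG00000029373) lies on chromosome 5 at 90772435 to 90773383, plus strand. Apoe was at 601 CPM (516 to 694) against 13548 CPM (13342 to 13757), 22.6-fold lower (19.5 to 26.3), against 355 CPM in epithelial cells. Mrc1, the mannose receptor, was 9.35-fold lower (7.14 to 12.5), and Ms4a7 16.2-fold lower (9.41 to 30.5). Adgre1, of the macrophage antigen F4/80, had 6 UMIs in 5 members, 15.5-fold lower (7.04 to 42.5). Lyve1 and Folr2, of resident macrophages, had 0 UMIs in the members against 166 and 96. Cd14 was at 422 against 619 CPM and did not reach the 2-fold limit.

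The scavenging and digesting apparatus was lower too. Of 21 measured scavenger, lipid and phagocytosis genes, 13 were at least 2-fold lower and 1 higher (median log2 ratio -1.94), and of 23 lysosome genes 14 were lower and 1 higher (median -1.25). Stab1, the scavenger receptor stabilin-1, had 4 UMIs in the members and was 45.8-fold lower (17.8 to 168). Trem2, a lipid-sensing receptor, was 6.16-fold lower (4.02 to 9.91), and Gpnmb, a glycoprotein of lipid-laden macrophages, had 0 UMIs against 291. Fabp5, a fatty acid carrier, was near, at 1211 against 1651 CPM. Cst3, the cysteine protease inhibitor cystatin C, was the lysosome gene that was higher, 2.09-fold (1.94 to 2.26). Of 6 measured Fc receptor genes 4 were lower and 0 higher, with Fcgr3 5.20-fold lower (3.83 to 7.24). The complement receptors C3ar1 and C5ar1 were 5.82-fold (3.93 to 8.99) and 6.52-fold (3.91 to 11.8) lower. Arg1, the arginase of wound macrophages, was at 69.3 against 958 CPM, with 61.9% of the members' UMIs in 1 cell.

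**Figure D3:**
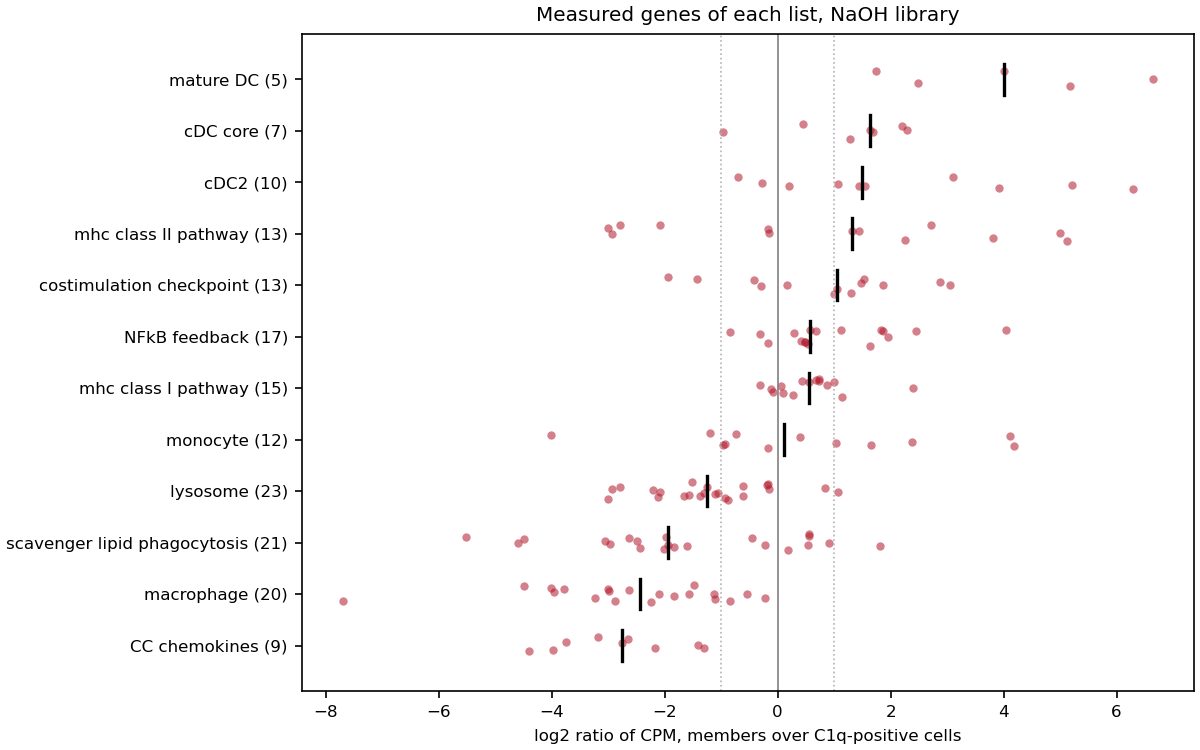
Points are the log2 ratios of CPM, members over C1q-positive cells, of the measured genes of 12 lists, and black bars their medians; the number of genes is in brackets and dotted lines mark a 2-fold difference. The mature dendritic cell list has the highest median (4.01) and the CC chemokine list the lowest (-2.75) of the 12. Both lists hold genes that passed the count minimum through a single cell group, which set their direction.

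Among all genes at or above 100 CPM in the higher cell group that other cell sets of the library did not exceed by more than the stated limit, the 15 of largest ratio in each direction were named. The higher ones beyond those given were P2ry10 (36.1-fold, 12.96 to 140), a G protein-coupled receptor, Gpr171 (24.1-fold, 10.7 to 63.6), another such receptor, and Plac8 (17.3-fold, 9.95 to 31.97) and Ifitm6 (18.3-fold, 8.76 to 42.8), both also monocyte genes. Plac8 stood at 620 CPM in neutrophils and 141 CPM in epithelial cells, against 228 CPM in the members. Col3a1, a fibrillar collagen, and Postn, periostin, were in the list through the cells with stromal RNA. These 4 cells held 298 of 328 Col3a1 UMIs and 34 of 47 Postn UMIs. Without them the members had 108 CPM of Col3a1 against 35.3 CPM in the C1q-positive cells, with 25 of the 30 UMIs in 1 cell that also held 54 UMIs of Rgs5 and 83 of Acta2, genes of mural cells, and 46.8 CPM of Postn, in 2 cells, against 4.93 CPM. Cxcl12 was named by the same rule and had 0 UMIs in the other members. The lower ones beyond those given were Fcrls (1 UMI against 355), Selenop (22.2-fold, 12.9 to 41.9), a selenium carrier, Ppbp (18.7-fold, 10.1 to 39.2), a chemokine next to Pf4, Tmem37 (1 UMI against 208), F13a1 (16.2-fold, 9.78 to 29.1), a clotting factor of macrophages, and Mmp9 (0 UMIs against 318). Ccl21a had 0 UMIs in the members, and all 274 UMIs of the C1q-positive cells came from 1 cell. For Mmp9, 0 of 73 members with a UMI allows a share of up to 4.93%, the upper limit of its 95% interval.

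**Figure D4:**
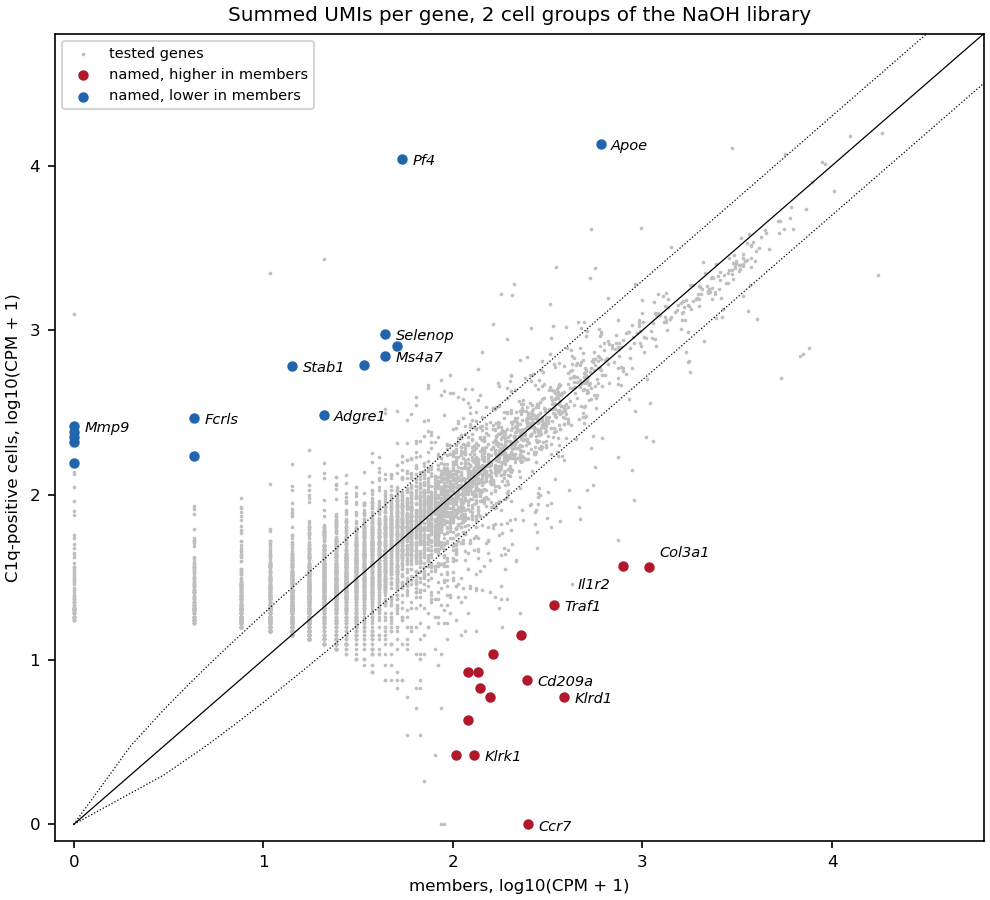
Each point is 1 of the 6686 measured genes by its level in the members (horizontal axis) and in the C1q-positive cells (vertical axis), both as log10(CPM + 1); the solid line marks equal levels and the dotted lines a 2-fold difference. Pf4 (52.8 against 10938 CPM) and Apoe (601 against 13548 CPM) lie above the 2-fold line, and Klrd1 (386 against 4.93 CPM) and Ccr7 (247 against 0 CPM) far below it.

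The members were not uniform. Grouped by their RNA after the values had been seen, 15 had a Ccr7 UMI, 29 of the others had at least 2 UMIs of Klrd1, Cd209a, Clec10a and Mgl2 together, 25 of the rest had at least 5 UMIs of the lysozyme gene Lyz2, and 4 fell in none of these. These groups come from the genes that are described, so their differences are no test. Ccr7 and Cd209a were seen together in 2 cells, and Ccr7 and Lyz2 in 4. Klrd1 crossed the groups: it was seen in 8 of the 15 Ccr7 cells, 4 of them the cells with stromal RNA. The median class II level was 40557 CPM in the Ccr7 group (49913 CPM without the 4 cells with stromal RNA), 53282 CPM in the Klrd1/Cd209a group and 27213 CPM in the Lyz2 group.

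The Ccr7 group held 25 of the 27 Il4i1 UMIs, 35 of the 36 Fscn1 UMIs and all 12 Ccl22 UMIs, of which the 4 cells with stromal RNA held 5, 1 and 5. These genes did not mark the whole group. In its other 11 cells Il4i1 and Fscn1 were each seen in 5 and Ccl22 in 4, while Klrd1 was seen in 4 and Clec10a in 3. Some of the 11 had 1 Ccr7 UMI and 0 UMIs of Il4i1, Fscn1 and Ccl22. Traf1 was at 560 CPM there, 408 CPM in the Klrd1/Cd209a group and 113 CPM in the Lyz2 group. Fabp5 was at 3892 CPM in the Ccr7 group, in 9 cells, against 416 and 389 CPM. Of all the members' Fabp5 UMIs 31.1% lay in 1 cell of the Ccr7 group, and epithelial cells of the library held 4035 CPM. Lgals3, galectin-3, ran the other way over the groups, at 882, 3514 and 5966 CPM. Without the 4 cells with stromal RNA the Ccr7 group had 11 cells. Traf1 was then at 778 CPM, Fabp5 at 5166 CPM in 5 cells and Lgals3 at 951 CPM.

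The Lyz2 group held most of the members' RNA of several macrophage and monocyte genes. It had 171 of the 182 Apoe UMIs, 1750 CPM against 42.0 CPM in the Ccr7 group and 65.2 CPM in the Klrd1/Cd209a group. Spp1, osteopontin, was at 1484 CPM there, against 14.0 and 40.8 CPM. Vcan and Fn1, matrix genes that monocytes carry, were at 491 and 1136 CPM in the Lyz2 group, and Ccr2 at 471 CPM, against 70.0 CPM in the Ccr7 group and 236 CPM in the Klrd1/Cd209a group. A single cell held 50 of the Lyz2 group's 111 Fn1 UMIs and 13 of its 48 Vcan UMIs. Other monocyte genes were spread more evenly. Plac8 had 30 UMIs in the Lyz2 group and 34 in the Klrd1/Cd209a group, and Ms4a4c had 46 and 38. Napsa was seen in 10 of the 15 cells of the Ccr7 group, 25 of the 29 of the Klrd1/Cd209a group and 15 of the 25 of the Lyz2 group. The way the Lyz2 group was formed left each of its cells under 2 UMIs of Klrd1, Cd209a, Clec10a and Mgl2 together. That Cd209a and Klrd1 were each seen in only 2 of its cells is therefore no result. The group's Lyz2 level was 8453 CPM and its Apoe level 1750 CPM, beside 8357 and 2553 CPM in the class II-high C1q-positive cells. Of those C1q-positive cells, 40.5% also had a Napsa UMI. The doublet caller marked 0 cells at its own threshold, and the part of doublets in these groups was not tested.

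A few genes of the members came from 1 cell. Rgs5, a pericyte gene, had all 54 of its UMIs in 1 member, Lyz1 all 37, and Retnla 76.2% of 21. In 40 of the 514 higher genes over 50% of the members' UMIs lay in 1 cell, and in 53 the 4 cells with stromal RNA held over 50%. Cycling genes were seen in few cells, with Top2a in 4 members and Mki67 in 6.

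The same rule applied to the uninjured library found 3 cells of 6740 kept, 0.0445% (0.00918 to 0.130), against 0.896% (0.703 to 1.13) of the kept cells in the NaOH library. The C1q-positive cells numbered 201 of 8146 in the NaOH library and 10 of 6740 in the uninjured one. Among keratin-low cells with Ptprc or Tyrobp, the rule took 3 of 17 in the uninjured library and 73 of 683 (10.7%) in the NaOH library. Its share of such cells was thus not higher in the NaOH library, and 17 cells are few for a comparison. The parts of dissection, digestion and the number of other cells in these shares were not tested. The 3 uninjured cells had 70793, 70543 and 84817 CPM of class II. They held 12, 5 and 12 UMIs of Cd209a, 2, 3 and 14 of Mgl2, and 19, 9 and 23 of Lyz2. Il1r2 and Ccr7 had 0 UMIs in each, and Il1b 0, 0 and 5. With 12412 UMIs over 3 cells, the levels of sparse genes cannot be compared between the libraries.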

How the data were processed

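Raw UMI counts of 32285 genes were deposited for each library. Per the file headers the authors used Cell Ranger 7.0.1, and the submitters' processing notes name GRCm38 as the genome; no source used here gives the annotation release. Cells were chosen as stated, and counts were summed over the cells of a group and divided by the group's total to give CPM. Intervals at 95% are exact Poisson for levels, conditional binomial for ratios and Clopper-Pearson for shares. They treat UMIs and cells as independent. Genes of at least 20 UMIs over both cell groups were measured, and at least 2-fold was called. The members, gene lists and rules were chosen with earlier results of these data known. The 15 named genes per direction had at least 100 CPM in the higher group and at least 25% of the level in each of 4 other cell sets (epithelial, neutrophil, stromal, endothelial), and excluded the rule's genes and the ribosomal, mitochondrial, sex-linked, hemoglobin and predicted ones. Scrublet in scanpy 1.11.5 marked 0 cells at its own threshold, so no doublets were removed; leaving out the highest 7.52% of scores was an alternative, and it took 3 members, 2 of them with stromal RNA. Promoters and locations come from RefSeq and GENCODE tables of GRCm38. No source used here says whether counting used strand, so antisense overlaps cannot be resolved. Python 3.11.15, numpy 2.4.6, pandas 2.3.3 and scipy 1.17.1 were used. The values of a single gene on the lists are not reported here.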

Additional observations from a re-analysis of the deposited data

How the results depend on the processing

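No paired analysis was possible because each group has 1 library and the comparison lies within 1 library. Of 447 values of named genes under 16 alternatives, 445 were at least 2-fold the same way and 0 reversed. These genes were picked for the largest ratios in the same cells, so this outcome was largely set in advance. A gene under the count minimum of an alternative gave no value. Cxcl12 was such a gene without the 4 cells with stromal RNA. The member share ran from 0.822% (0 C1q UMIs) to 0.936% (highest doublet scores left out). Thinning to 1000 UMIs gave 134 genes higher and 363 lower of 2096. Comparison with the C1q-positive cells of at least 5000 CPM class II gave 255 and 284 of 3348, a minimum of 100 UMIs 99 and 297 of 2265, and a minimum of 1 UMI 991 higher of 7958. Fewer or more genes were measured in each. The median log2 ratio of the class II pathway list reversed to -0.13 with thinning, -0.16 with at least 100 UMIs and -0.17 without the 23 members with UMIs of lymphocyte genes; its higher and lower members lie on either side of 0. The stromal list, 1.88 with all members, reversed to -1.24 without the 4 cells with stromal RNA, an alternative chosen after seeing the data, as was counting the 3 matching barcodes once, which gave 460 genes higher and 1004 lower. Depth limits all genes of few UMIs.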
